A study of Mus musculus with 12 samples.

Results

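The mitochondrial ribosomal protein genes were followed across all 4 groups of the study. They were chosen by symbol alone: every row of the count table whose name began with Mrpl or Mrps followed by a digit. This gave 77 of 18092 rows, 47 of them Mrpl (large subunit) and 30 Mrps (small subunit). All 77 passed the filter on low counts. Of these, 5 rows had a mean of under 50 counts, and the median of the mean counts was 745.5 reads per library.

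The source was ileal enteroids of C57Bl/6 mice, that is, gut epithelium kept in culture, and the libraries were directional and poly(A)-selected. The 4 groups held 3 libraries each: untreated, butyrate (1 mM, 48 h), IL-13 (20 ng/mL, 72 h), and both agents at these doses and times. Butyrate is a short-chain fatty acid made by gut bacteria, an energy source of intestinal epithelium and an inhibitor of histone deacetylases. Type 2 immune cells release IL-13, whose receptor acts through STAT6. The labels name no mutation or transgene in any group, and nothing in them ties replicates to different animals or wells. The p-values therefore weigh only library-to-library spread, which may be technical.

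Mitochondria keep their own ribosomes, which translate the few proteins encoded by mitochondrial DNA, all of them subunits of the respiratory chain and the ATP synthase. The ribosomal RNAs are mitochondrial, but every ribosomal protein is encoded in the nucleus, made in the cytosol and imported. Some of these proteins descend from bacterial ribosomal proteins and others exist only in mitochondria. Symbols do not always tell the place: the products of Mrps18a and Mrps30 sit in the large subunit in structures, Mrps36 encodes a component of the oxoglutarate dehydrogenase complex, and Mrps36-ps1 is a processed pseudogene.

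Library totals ran from 13867982 to 24294456 counts, and IL-13 libraries were the shallower ones (14239405 to 15008598 after IL-13 alone, 13867982 to 15618074 after both agents). The summed level of 8 epithelial markers was 8334 to 11535 CPM, the read count scaled to library size. Summed markers of mesenchymal, endothelial and glial cells reached at most 4.09, 1.36 and 1.56 CPM in any library, and 6 immune markers lay between 27 and 34.7 CPM. Proliferation markers moved with IL-13: 8 of 8 were lower, with sums of 777 to 795 CPM in the untreated and 670.2 to 767 CPM in the butyrate libraries, against 249 to 346 CPM after IL-13 and 190.5 to 214 CPM after both agents. Butyrate replicate 2 and butyrate + IL-13 replicate 3 stood apart by their Lars2 level (5046 and 6981 CPM, against 423 to 1433 in the other 10 libraries). In bulk RNA, fewer cells of a type and less RNA per cell cannot be told apart.

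Mitochondrial ribosomal protein rows took between 0.349% and 0.426% of all counts in a library. Their order was stable: the rank correlation of the 77 mean levels between groups lay between 0.964 and 0.994, a description across genes that share libraries. Per kilobase of transcript, the highest levels were those of Mrpl34 (190.2 CPM per kb), Mrps34 (186), Mrpl43 (103) and Mrpl12 (97.9, in the stalk that recruits translation factors). The lowest were Mrps33 (1.1), Mrps18c (1.34), Mrps36 (1.52) and Mrpl23 (2.33). The median was 28.5 CPM per kb over 46 large subunit rows and 25.3 over 30 small subunit rows. These values depend on the annotated transcript chosen for each gene, and copies in the genome may share reads: the annotation holds 5 pseudogenes named after members (Mrpl23-ps1, Mrpl48-ps, Mrps36-ps1, Mrps36-ps2 and Mrps36-ps3), so values of Mrpl23, Mrpl48 and the Mrps36 rows are uncertain. Copies under other names were not searched for. Values of other rows, the lowest ones included, may be uncertain for the same reason.

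The summed level of each subunit was compared first. On library sizes corrected for composition (TMM), which place the median gene near 0 change, the large subunit rows summed to 2453, 2507 and 2516 CPM in untreated libraries. With butyrate they summed to 2480.0, 2297 and 2564 CPM. With IL-13 the sums were 2810.2, 2863 and 2650.2 CPM, and with both agents 2714, 2842 and 2661 CPM. All 6 libraries with IL-13 thus lay above all 6 without it. The small subunit sums were 1294, 1311 and 1334 CPM in untreated libraries and 1235, 1175 and 1366 CPM with butyrate. They were 1439, 1475 and 1351 CPM with IL-13 and 1335, 1406 and 1321 CPM with both. The small subunit groups overlapped wherever butyrate was present, while IL-13 lay above untreated in 3 of 3 libraries.

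The direction of these sums depended on the scale. Relative to the total counts of each library alone, the large subunit sum was 2730 ± 64.1 CPM in untreated and 2705 ± 97.4 with IL-13 (SD, n = 3), and 2563 ± 131 with butyrate and 2449 ± 122 with both. The small subunit sum was 1438 ± 36.8, 1386 ± 56.9, 1318 ± 93.0 and 1211 ± 58.9 CPM in the same order. On that scale the median of all tested genes also shifted, by -0.18 (log2) with IL-13 and by -0.27 for both agents over butyrate. Against the median gene, the median large subunit row lay 0.12 higher and the median small subunit row 0.06 higher with IL-13. For both agents over butyrate these differences were 0.20 and 0.13. They were the same to 2 decimals under TMM, RLE size factors and library totals. A change of scale moves all genes of a comparison by nearly the same amount. This sameness was therefore fixed in advance and is no test of the scale. All fold changes below are on the TMM scale.

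**Figure D1:**
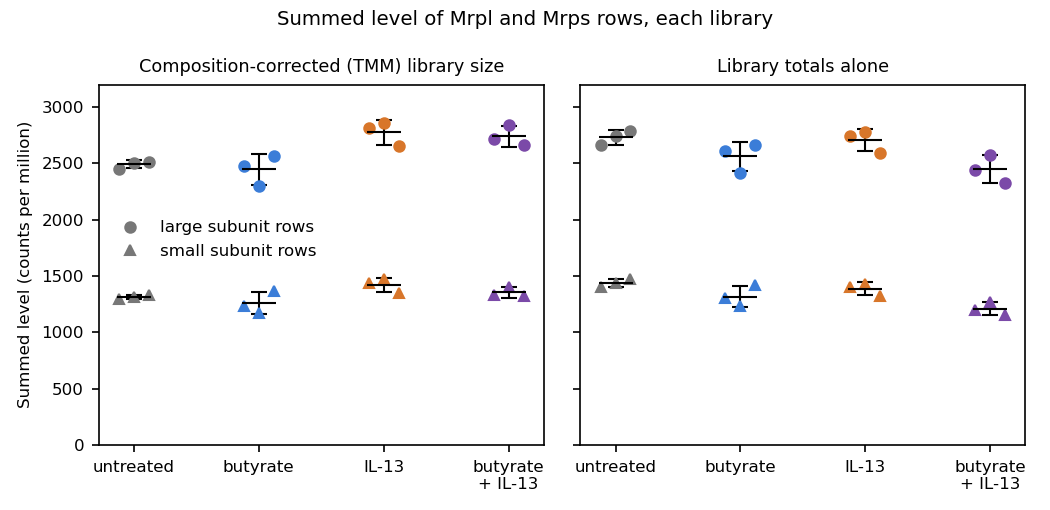
Summed level of the 47 Mrpl rows (circles) and 30 Mrps rows (triangles) in each library, in CPM of the TMM-corrected library size (left) and of the library total (right); bars are means and SD of 3 libraries. Libraries with IL-13 lie above those without it for the large subunit on the left, and they do not on the right.

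The ratio of the 2 sums, which needs no library scale, was 1.898 ± 0.013 in untreated libraries, 1.951 ± 0.011 with IL-13 and 2.023 ± 0.010 with both (SD, n = 3). It was 1.947 ± 0.065 with butyrate, where single libraries ran from 1.88 to 2.01. With rows placed by symbol, the untreated, IL-13 and double-treated libraries did not overlap, and the butyrate libraries overlapped the untreated and IL-13 ones. Part of that separation depended on the placement. With Mrps18a and Mrps30 in the large subunit and Mrps36 and Mrps36-ps1 left out, IL-13 and double-treated libraries overlapped. On library totals, large and small sums were then 2736 and 1177 CPM in IL-13 replicate 3, the higher ratio. They were 2535 and 1104 CPM in butyrate + IL-13 replicate 1. No test was made on these sums, because they are scores over chosen members.

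IL-13 was compared with no treatment gene by gene. By edgeR's quasi-likelihood test, 12 large subunit rows rose and 1 fell, 7 small subunit rows rose and none fell, at a Benjamini-Hochberg adjusted p under 0.05. These 20 of 77 rows made up 26%, against 43.5% of all 13750 genes tested; 24.7% of members rose against 21.8% of all genes, and 1.3% fell against 21.7%. The changes were small: 5 called rows reached 1.5-fold, and the 95% interval lay within 1.5-fold in either direction for 57 of 77. The median log2 fold change was 0.10 for the large subunit, 0.05 for the small subunit and -0.01 for all genes tested. On library totals alone 7 large subunit rows were higher and 7 lower, and 2 small subunit rows were higher and 3 lower. The median gene lay at -0.18 on that scale. Shares of all genes called on library totals were not counted, here or below. Counts on that scale therefore do not set members or lists apart from other genes.

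The small subunit count rested on single libraries: it was 7 with all libraries and 3, 2, 4, 2 and 3 without untreated replicate 1, untreated replicate 2, IL-13 replicate 1, IL-13 replicate 2 and IL-13 replicate 3. The large subunit count stayed between 10 and 13 in all 12 omissions of a single library.

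**Figure D2:**
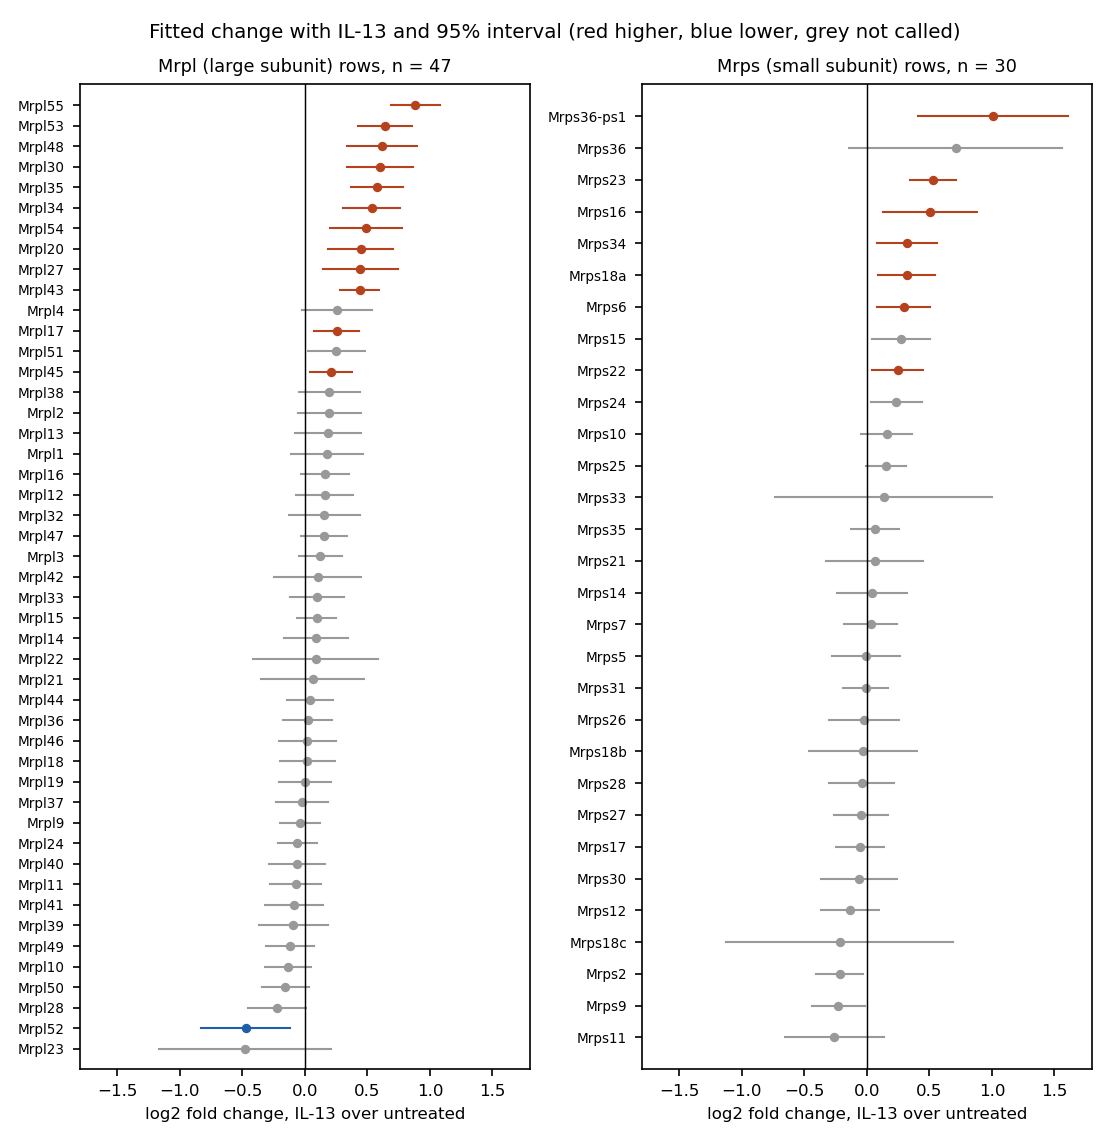
Log2 fold change of IL-13 over untreated for each Mrpl row (left) and Mrps row (right), with its 95% interval, sorted by size; red rows were called higher, blue lower and grey not called. Most intervals include 0. The rows called higher form a tail that reaches from 0.21 to 1.01, and 1 row, Mrpl52, was called lower.

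Mrpl55, the mitochondrial relative of bacterial L31, had the smallest p (chromosome 11, 59202486 to 59206134, plus strand, in mm10). Its level was 31.5, 30.3 and 30.2 CPM in untreated libraries, 34, 31.3 and 39.1 with butyrate, 55.1, 57.4 and 57.4 with IL-13, and 54.1, 59.2 and 53.9 with both. The 6 libraries with IL-13 were all higher than the 6 without. The log2 fold change over untreated was 0.88 ± 0.09 (SE; edgeR adjusted p = 6.1e-07).

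Mrpl53, a mitochondria-specific protein at the base of the stalk (chromosome 6, 83109095 to 83109939, plus strand), measured 38.0, 40.2 and 38.9 CPM in untreated libraries and 40.5, 35.5 and 40.0 with butyrate. It measured 55.2, 64.7 and 62.5 CPM with IL-13 and 48.3, 62.8 and 58.6 with both. The groups with and without IL-13 did not overlap, and the log2 fold change over untreated was 0.64 ± 0.10 (edgeR adjusted p = 7.2e-05). An annotated gene on the same strand, Gm42688, shares exon bases with Mrpl53, so its reads cannot be told apart there.

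Mrpl35, the counterpart of bacterial L35 (chromosome 6, 71813003 to 71823810, minus strand), rose from 46.7, 45.0 and 47.3 CPM to 74.3, 72.1 and 60.8 CPM, a log2 fold change of 0.58 ± 0.10 (edgeR adjusted p = 0.00012). Mrpl43, mitochondria-specific and among the most abundant members (chromosome 19, 45005014 to 45006442, minus strand), rose from 120.02, 126 and 126 CPM to 173, 170.4 and 161 CPM, by 0.44 ± 0.08 (adjusted p = 0.00013). Mrpl34, the counterpart of bacterial L34, rose from 92.5, 97.3 and 106 CPM to 156, 150.2 and 122 CPM, by 0.53 ± 0.11 (adjusted p = 0.00071). In each of these genes the lowest IL-13 library was above the highest untreated one.

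Of the small subunit, Mrps23, a mitochondria-specific protein (chromosome 11, 88204388 to 88211507, plus strand), changed with the smallest p. It measured 79.1, 86.5 and 82.0 CPM in untreated libraries, 82.0, 85.9 and 86.4 with butyrate, 126, 126 and 107 with IL-13, and 116, 122 and 137 with both. Every library with IL-13 was above every library without, and the log2 fold change over untreated was 0.53 ± 0.09 (edgeR adjusted p = 9.0e-05).

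The other small subunit calls were weaker. Mrps16, the counterpart of bacterial S16, measured 8.53, 9.84 and 13.5 CPM before and 15.1, 14.6 and 15.1 CPM after IL-13 (log2 fold change 0.50 ± 0.18, adjusted p = 0.030). Mrps6 rose by 0.30 ± 0.10 (adjusted p = 0.023), and Mrps18a, which sits in the large subunit, by 0.32 ± 0.11 (adjusted p = 0.024), with 1 untreated library (29.4 CPM) above the lowest IL-13 library (29 CPM). Each of these calls was lost when any of several single libraries was left out, for Mrps18a without untreated replicate 1 or 2 or IL-13 replicate 2 or 3, and for Mrps6 and Mrps16 without untreated replicate 1 or 2 or any IL-13 library, at adjusted p between 0.053 and 0.15. The pseudogene row Mrps36-ps1 had the largest fold change of all members, from 2.10, 1.86 and 1.27 CPM to 3.39, 3.16 and 4.15 CPM (log2 fold change 1.01 ± 0.28, adjusted p = 0.0079). Mrps36 itself was at 0.86 ± 0.21 CPM in untreated and 1.40 ± 0.45 CPM in IL-13 libraries (SD, n = 3), with groups that overlapped and no call (log2 0.71, 95% interval -0.14 to 1.56, adjusted p = 0.17).

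Mrpl52, a protein of the central protuberance, was the 1 member called lower. It measured 11.7, 14.1 and 17.2 CPM untreated and 10.8, 10.8 and 9.25 CPM with IL-13 (log2 fold change -0.47 ± 0.17, adjusted p = 0.031). Its groups did not overlap, but the call was lost without untreated replicate 2 or 3 or any IL-13 library (adjusted p up to 0.17).

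In all, 11 of the 20 calls held whichever single library was left out: Mrpl55, Mrpl53, Mrps23, Mrpl35, Mrpl43, Mrpl34, Mrpl30, Mrpl48, Mrpl20, Mrpl54 and Mrps36-ps1. Mrpl20 and Mrpl54 were no longer called on library totals alone (adjusted p = 0.070 and 0.061). By site, 2 of 5 stalk proteins rose (Mrpl53 and Mrpl54), 2 of 8 of the central protuberance rose and 1 fell, and 2 of 7 around the exit tunnel rose. By descent, 7 of 29 large subunit rows with bacterial homologues rose, as did 5 of 18 mitochondria-specific ones, 2 of 16 small subunit rows with bacterial homologues and 3 of 10 mitochondria-specific ones. Of all genes 21.8% rose and 21.7% fell, and differences between these groups were not tested.

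Several members with well-known roles were not called with IL-13. Mrps12, in the decoding centre, measured 38.5 ± 1.98 CPM untreated and 35.1 ± 1.81 with IL-13 (SD, n = 3), with a log2 fold change of -0.13 (95% interval -0.36 to 0.10). Mrpl12 measured 126 ± 11.2 and 140.3 ± 11.8 CPM (0.16, -0.07 to 0.39). Mrpl3, next to the peptidyl transferase centre, measured 72.0 ± 0.94 and 78.5 ± 2.12 CPM (0.12, -0.05 to 0.29). Mrps7 measured 84.0 ± 5.22 and 85.9 ± 7.34 CPM (0.03, -0.18 to 0.24), and Mrpl41 37.4 ± 0.69 and 35.2 ± 4.80 CPM (-0.09, -0.32 to 0.14). Each of these intervals stayed within 1.5-fold. Mrps2 was lower in every IL-13 library (74.4, 69.4 and 63.7 CPM untreated, 61.6, 59.4 and 57.6 with IL-13) and missed the threshold (log2 -0.22, adjusted p = 0.060). Mrpl45, which tethers the ribosome to the inner membrane, was called at 0.21 ± 0.08 (adjusted p = 0.043), a call lost in 7 of the single-library omissions.

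**Figure D3:**
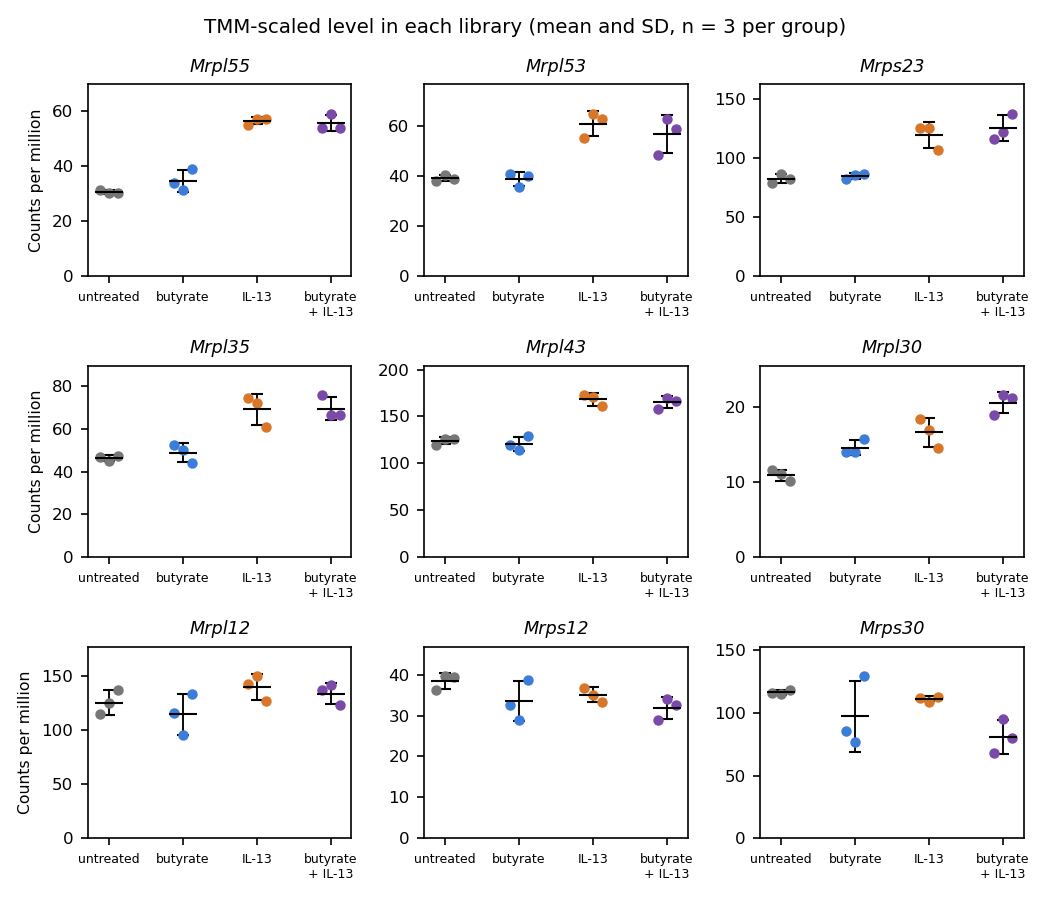
TMM-scaled CPM of 9 members in each library, with means and SD of 3 libraries per group and axes from 0. Mrpl55, Mrpl53, Mrps23, Mrpl35 and Mrpl43 are higher in every IL-13 library than in every library without IL-13, Mrpl30 is lowest in untreated libraries, Mrpl12 and Mrps12 overlap between untreated and IL-13 libraries, and Mrps30 spreads most with butyrate.

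In the deposited table the authors' own comparison of these 2 groups had an FDR under 0.05 for 24 members, 21 of them higher with IL-13. The authors' deposited table and the edgeR fit shared 20 calls, all in the same direction. The authors' table alone called Mrps15 and Mrps24 higher and Mrps2 and Mrpl28 lower.

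The position of members among short genes was examined because ribosomal proteins are short. Of the 25 members with the shortest coding sequences (261 to 498 bases), 10 rose and 1 fell with IL-13, at a median log2 fold change of 0.14. Of the middle 25 (501 to 756 bases) 6 rose, at a median of 0.15, and of the longest 25 (762 to 1326 bases) 2 rose, at a median of 0.00. Other genes in the same length ranges had medians of 0.03, 0.05 and -0.01; 24.6%, 25.5% and 22.3% of them were called higher and 16.9%, 20.1% and 21.2% lower. The rank correlation of fold change with coding length was -0.24 over 75 members and -0.04 over 12589 genes, a description across genes of the same libraries; the part of length in the members' changes was not tested.

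Promoter sequences from RefSeq (GRCm38.p6, 250 bases before to 50 after each start) matched 67 of the 77 rows, in 73 windows. Windows were searched on both strands for CCGGAAG, a core of the ETS motif bound by GABPA, for GCGCATG, part of the NRF1 motif, and for GATGGCG, a core of the YY1 motif; these factors are known regulators of nuclear genes for mitochondrial proteins. CCGGAAG stood in 32.9% of member windows and in 8.86% of all 32851 windows. GCGCATG stood in 11% against 3.91%, and GATGGCG in 11% against 3.49%. At least 1 of the 3 stood in 46.6% against 14.7%. All windows include those of genes not tested here, while all members were tested. Per gene, the ETS letters were found for 24 of 67 members, and the NRF1 and YY1 letters for 8 of 67 each. Among tested genes with a window, NRF1 letters were found for 7.37% of those that rose with IL-13 and 7.73% of the others. YY1 letters were found for 6.08% and 7.58%. These shares, and the ETS shares below, exceed those of all windows, which are thus a low reference for members. CCGGAAG was present for 10 of 16 members that rose with IL-13 and for 14 of 51 other members. Among all tested genes with a window it was no more frequent in those that rose (18.2% of 2090) than in the others (19.8% of 7296). The motif was searched as letters only, and its link to the changes was not tested.

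The 120 bases before the start of 5 members are shown to let these matches be seen: 3 that rose with IL-13 and hold the letters (Mrpl53, Mrpl43 and Mrpl34), 1 that holds them and was not called (Mrpl3), and Mrpl55, which had the smallest p and holds none of the 3 in this stretch. Each is written 5′ to 3′ on the gene's own strand, with CCGGAAG or its reverse complement in capitals. The regions are chr6:83108988-83109107 (plus), chr19:45006443-45006562 (minus), chr8:71464806-71464925 (plus), chr9:105053148-105053267 (plus) and chr11:59202366-59202485 (plus).
Mrpl53: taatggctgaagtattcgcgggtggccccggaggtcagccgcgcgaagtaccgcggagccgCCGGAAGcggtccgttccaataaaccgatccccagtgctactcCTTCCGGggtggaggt
Mrpl43: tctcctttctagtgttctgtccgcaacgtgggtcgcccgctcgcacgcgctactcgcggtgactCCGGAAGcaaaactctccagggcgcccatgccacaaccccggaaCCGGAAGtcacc
Mrpl34: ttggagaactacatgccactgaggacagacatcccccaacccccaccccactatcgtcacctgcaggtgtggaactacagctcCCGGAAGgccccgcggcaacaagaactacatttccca
Mrpl3: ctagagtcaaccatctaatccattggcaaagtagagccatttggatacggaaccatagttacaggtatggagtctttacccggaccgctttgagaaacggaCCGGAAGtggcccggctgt
Mrpl55: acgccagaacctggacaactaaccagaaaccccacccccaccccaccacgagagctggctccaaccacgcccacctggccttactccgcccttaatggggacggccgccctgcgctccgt

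In Mrpl53 the matches began 59 and 16 bases before the start, on opposite strands, and in Mrpl43 56 and 12 bases before it. In Mrpl34 and Mrpl3 the match began 37 and 19 bases before the start. Mrpl46 and Mrps11, 1 member of each subunit, lay head to head on chromosome 7, with RefSeq starts 42 bases apart. In the coordinates of the counted genes they overlap, as Mrpl46 (minus strand) reaches 78783531 and Mrps11 (plus strand) begins at 78783119. They share exon bases on opposite strands, so their counts carry that uncertainty. Neither was called in any comparison.

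Butyrate alone was compared with no treatment next. By the same edgeR test 1 of 77 members (1.3%) was called, against 7.9% of all genes tested (5.14% higher and 2.76% lower), and 2 members had an unadjusted p under 0.05. The median log2 fold change was -0.01 for the large and -0.05 for the small subunit. The 95% interval lay within 1.5-fold for 71 of 77 members and within 2-fold for all 77. The called gene was Mrpl30, the counterpart of bacterial L30, at 11.6, 11 and 10.1 CPM in untreated and 14, 14 and 15.7 CPM in butyrate libraries. The groups did not overlap, and the log2 fold change was 0.41 ± 0.12 (adjusted p = 0.049). This call was lost in 9 of 12 omissions of a single library and under library totals alone, with no filter, with only the groups compared and with a replicate block. With IL-13 over untreated the same gene rose by 0.60 ± 0.13 (adjusted p = 0.00080), to 18.3, 17 and 14.6 CPM.

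Adding butyrate to IL-13 changed few members. Over IL-13 alone, 2 large subunit rows rose and 1 fell, and 1 small subunit row fell, by edgeR; these were 5.19% of members against 21.2% of all genes tested (9.85% higher and 11.3% lower). Mrpl14, the counterpart of bacterial L14, measured 48.4, 59.7 and 52.3 CPM with IL-13 and 64.4, 74.1 and 78.6 CPM with both (log2 fold change 0.44 ± 0.12, adjusted p = 0.015). Mrpl24, near the exit tunnel, measured 101, 106 and 99.8 CPM with IL-13 and 126, 119 and 112 CPM with both (0.22 ± 0.08, adjusted p = 0.047). The libraries of the 2 groups did not overlap for either gene.

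Of the members that fell, Mrpl49 measured 53.7, 49.6 and 47.8 CPM with IL-13 and 42.7, 37.6 and 43.3 CPM with both (log2 fold change -0.29 ± 0.09, adjusted p = 0.033). Mrps30, of the central protuberance of the large subunit, measured 112, 109 and 112 CPM with IL-13 and 67.8, 94.8 and 79.6 CPM with both (-0.46 ± 0.15, adjusted p = 0.033). With butyrate alone Mrps30 was at 85.2, 76.9 and 129 CPM, a spread wider than in any other group, and was not called against untreated. None of the 4 calls held through every omission of a single library: Mrpl14 was lost without IL-13 replicate 1 or 3 or butyrate + IL-13 replicate 3, Mrpl49 and Mrps30 in 5 omissions each and Mrpl24 in 9. Each of the 4 also shares exon bases with a gene on the other strand. On library totals alone 5 large and 3 small subunit rows were called, all lower. The median gene lay at -0.14 on that scale, and the share of all genes called there was not counted.

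The effect of IL-13 in the presence of butyrate was taken from both agents over butyrate. Here 12 large subunit rows rose and 3 fell, and 9 small subunit rows rose and 1 fell, by edgeR. The 25 calls made up 32.5% of members against 47.7% of all genes; 27.3% rose against 22.9%, and 5.19% fell against 24.9%. The median log2 fold change was 0.16 for the large subunit, 0.09 for the small subunit and -0.04 for all genes. On library totals alone 5 large subunit rows were higher and 11 lower, and 3 small subunit rows were higher and 8 lower. The median gene lay at -0.27 on that scale, and the shares of all genes called there were not counted. Without both libraries highest in Lars2, 10 large and 8 small subunit rows were called. That run left out 1 library of each group compared, and the share of all genes called in it was not counted.

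The leading rows were again Mrpl55 (log2 fold change 0.68 ± 0.09, adjusted p = 1.1e-05), Mrpl43 (0.45 ± 0.08, 9.3e-05), Mrpl53 (0.55 ± 0.10, 0.00029) and Mrpl35 (0.51 ± 0.10, 0.00037) for the large subunit, and Mrps23 (0.56 ± 0.09, 4.2e-05) for the small. Mrpl51, a mitochondria-specific large subunit protein, measured 23.3, 23.1 and 25.5 CPM with butyrate and 36.4, 29.8 and 35.7 CPM with both (0.50 ± 0.11, adjusted p = 0.00096). Mrps16 measured 12.6, 8.58 and 12.5 CPM with butyrate and 15.1, 20.0 and 19.1 CPM with both (0.68 ± 0.18, adjusted p = 0.0041). Mrps18a rose by 0.44 ± 0.11 (adjusted p = 0.0026) and Mrps24 by 0.32 ± 0.10 (adjusted p = 0.012); Mrps24 shares exon bases with Urgcp on the same strand and its call was lost without butyrate replicate 2. Of the 25 calls, 14 held through every omission of a single library and 8 under every alternative run: Mrpl55, Mrps23, Mrpl43, Mrpl53, Mrpl35, Mrpl51, Mrps16 and Mrps36-ps1.

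Among the rows that fell, Mrpl11 of the stalk measured 39.8, 39.7 and 40.1 CPM with butyrate and 33.3, 32.8 and 31 CPM with both (log2 fold change -0.30 ± 0.10, adjusted p = 0.017). Mrps18b, a paralogue of Mrps18a and Mrps18c, measured 4.54, 5.46 and 5.32 CPM with butyrate and 3.48, 3.58 and 2.56 CPM with both (-0.67 ± 0.21, adjusted p = 0.016). The Mrpl11 and Mrps18b groups did not overlap, and both calls were lost without butyrate + IL-13 replicate 3. Mrpl49 fell by 0.27 on the log2 scale (SE 0.09, adjusted p = 0.021), a call lost without butyrate + IL-13 replicate 2. Mrpl23, near the exit tunnel and low, measured 2.07, 1.61 and 2.21 CPM with butyrate and 0.63, 1.59 and 0.88 CPM with both (-0.93 ± 0.36, adjusted p = 0.041), and its call was lost in 7 omissions. Of the 3 paralogues of bacterial S18, Mrps18a was called higher and Mrps18b lower in this comparison. Mrps18c, low at 0.89 ± 0.39 and 0.76 ± 0.35 CPM (SD, n = 3), was not called. Differences between the 3 genes were not tested.

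The IL-13 effects without and with butyrate come from separate libraries and can be set side by side. Of 19 members that rose without butyrate and 21 that rose with it, 13 were shared (68.4% and 61.9%): Mrpl30, Mrpl34, Mrpl35, Mrpl43, Mrpl45, Mrpl48, Mrpl53, Mrpl55, Mrps16, Mrps18a, Mrps23, Mrps36-ps1 and Mrps6. Of 1 that fell without and 4 that fell with butyrate, 0 were shared. Shared calls were not counted over all genes, so these shares do not set the members apart from other genes. The 2 fold changes had the same sign in 64 of 77 members and in 11558 of 13750 genes. Across the 77 members the correlation of the 2 sets of fold changes was 0.82, and across all 13750 genes it was 0.83, over genes measured in the same 12 libraries on 1 scale. The interaction, which tests whether the IL-13 effect differed with butyrate, called 0 of 77 members by edgeR and 0 by DESeq2, with 3 at an unadjusted p under 0.05, against 0.865% of all genes called by edgeR (0.255% higher and 0.611% lower). Those 3 were Mrpl15 (log2 0.25 ± 0.10, adjusted p = 0.39), Mrpl14 (0.38 ± 0.17, 0.43) and Mrps18b (-0.64 ± 0.30, 0.45). The 95% interval of the interaction lay within 1.5-fold for 57 of 77 members.

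**Figure D4:**
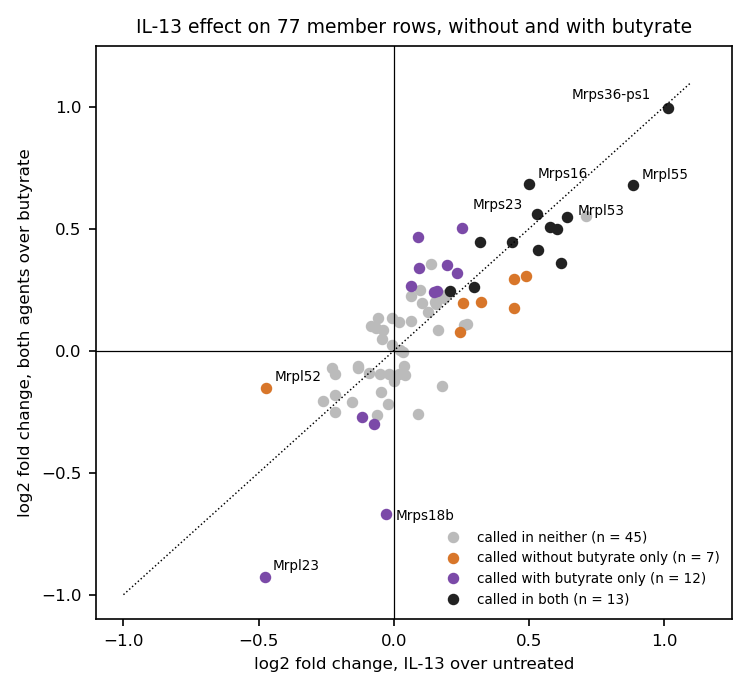
Log2 fold change of IL-13 over untreated (x axis) and of both agents over butyrate (y axis) for the 77 member rows, coloured by the comparisons in which each was called; the dotted line marks equal values. The 13 rows called in both lie near the line in the upper right, and Mrpl23 and Mrps18b have the lowest values on the y axis.

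The rest of the mitochondrial translation machinery was described from fixed lists. Of 7 mitochondrial ribosomal proteins under other symbols, 2 rose with IL-13, Aurkaip1 (log2 0.23 ± 0.08, adjusted p = 0.024) and Chchd1 (0.33 ± 0.11, 0.026), both of the small subunit; neither call held through every omission of a single library, and on library totals alone 0 of the 7 were higher and 2 lower. The 2 calls were 28.6% of that list, against 21.8% of all genes that rose. Of 15 translation factors, 4 rose (26.7%) and 1 fell (6.67%, against 21.7% of all genes); on library totals alone 1 was higher and 6 lower. Mtif3, an initiation factor, rose by 0.39 ± 0.08 (adjusted p = 0.00057), from 78.8, 78.1 and 84.7 CPM to 111, 105 and 100.1 CPM, and Lrpprc, which stabilises mitochondrial messenger RNA, by 0.37 ± 0.09 (0.0024). Tsfm, an elongation factor, fell by 0.28 on the log2 scale (adjusted p = 0.021), a call lost in 5 omissions of a single library.

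Mitochondrial aminoacyl-tRNA synthetases charge the tRNAs these ribosomes use. With IL-13, 0 of 17 rose, 6 fell and 11 were not called; 35.3% were lower against 21.7% of all genes, a difference that was not tested. The number that fell was 4 to 8 with a single library left out and 13 on library totals alone, and the median log2 fold change was -0.24. Ears2 fell by 0.57 on the log2 scale (SE 0.13, edgeR adjusted p = 0.0021), Iars2 by 0.28 (SE 0.07, 0.0034) and Cars2 by 0.73 (SE 0.18, 0.0038), and their untreated and IL-13 libraries did not overlap. For both agents over butyrate 0 rose and 8 fell (47.1%, against 24.9% of all genes). Of 27 assembly and ribosomal RNA modification factors, 1 rose (3.7%) and 2 fell (7.41%) with IL-13, both below the shares of all genes, at a median of -0.15; on library totals alone 0 were higher and 15 lower. The GTPase Noa1 fell from 55.5, 49.7 and 47.5 CPM to 34.4, 36.6 and 33.7 CPM (-0.54 ± 0.12, adjusted p = 0.0012) and was lower again with both agents, at 23.2, 25.7 and 18.6 CPM (-0.64 ± 0.12 over IL-13, adjusted p = 0.0015).

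**Figure D5:**
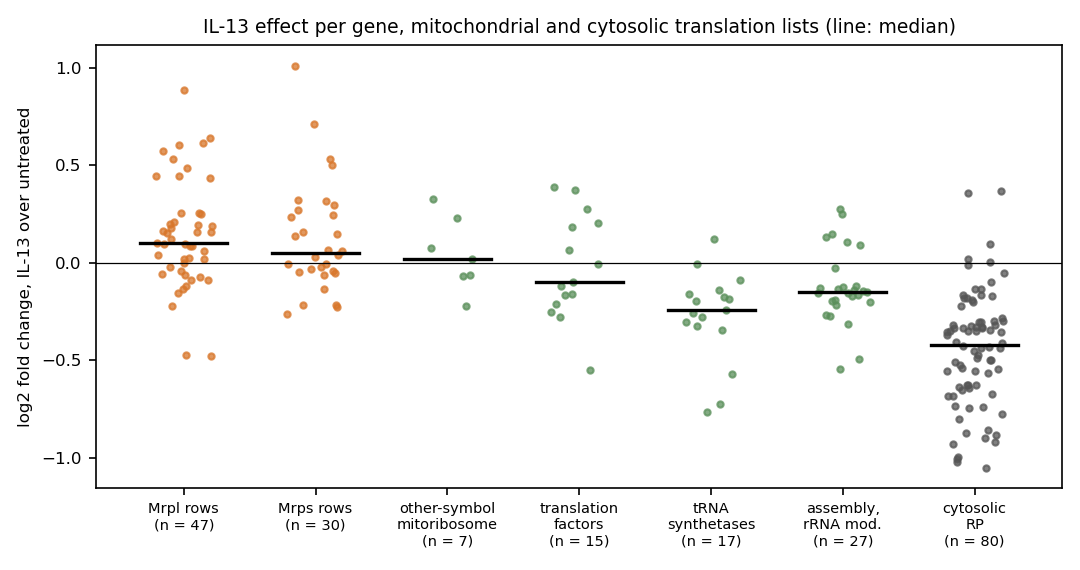
Log2 fold change of IL-13 over untreated for each tested gene of the Mrpl and Mrps rows (orange), 4 lists of other mitochondrial translation genes (green) and cytosolic ribosomal proteins (grey, RP), with the median of each as a line. Medians are 0.10 and 0.05 for the Mrpl and Mrps rows, -0.24 for the tRNA synthetases and -0.42 for the cytosolic ribosomal proteins. Values of the cytosolic ribosomal proteins are uncertain, because many of these genes have processed copies.

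Of 15 regulators of mitochondrial gene expression, 3 rose and 3 fell with IL-13 by edgeR (20.0% each, near the 21.8% and 21.7% of all genes), and 9 were not called. All 6 calls held through every omission of a single library; on library totals alone 3 were higher and 5 lower. The coactivator Ppargc1b rose from 18.1, 17.4 and 18.9 CPM to 33, 45.1 and 34.6 CPM (log2 1.05 ± 0.13, adjusted p = 2.3e-06). The coactivator Ppargc1a rose from 105, 96.1 and 84.6 CPM to 159, 149 and 148 CPM (0.67 ± 0.11, 6.2e-05), and the nuclear receptor Esrra from 315, 325 and 348 CPM to 565, 584 and 522 CPM (0.76 ± 0.12, 4.4e-05). Myc fell from 207, 193 and 215 CPM to 156, 144 and 158 CPM (-0.42 ± 0.10, 0.0022). Tfam, which packages mitochondrial DNA and activates its transcription, fell from 109, 101 and 93.8 CPM to 76.4, 68.3 and 70.4 CPM (-0.50 ± 0.10, 0.00054), and Mycn fell by 1.90 on the log2 scale, from between 3.64 and 5.29 CPM to between 0.65 and 1.63 CPM (SE 0.37, 0.00044). None of Nrf1, Gabpa, Gabpb1 or Yy1, the factors behind the searched letters, was called in this comparison. Butyrate alone called 0 genes in each of these mitochondrial lists, by edgeR.

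Cytosolic ribosomal proteins, were listed for comparison. With IL-13, 2 of 80 rose (2.5%, against 21.8% of all genes) and 41 fell (51.2%, against 21.7%), at a median log2 fold change of -0.42 (28 to 45 lower with a single library left out, 57 on library totals alone). Both agents over butyrate gave the same counts, against 22.9% and 24.9% of all genes, at a median of -0.48. Many of these genes have processed copies in the genome, and their values are uncertain for that reason. The 83 rows of the list summed to 4250 to 4758 CPM in untreated libraries and 3452 to 3634 CPM with IL-13. The 77 member rows had a mean sum of 3805 CPM in untreated libraries. Untreated levels differed widely, for example 0.55, 0.57 and 0.83 CPM for Rps27 and 1212, 1256 and 1302 CPM for Rpl8. Reads missing from these rows were not counted, and their part in the fold changes was not tested. Butyrate alone called 1 of 80, lower. The same libraries had the lower proliferation marker sums given above, and the part of that difference in any of these lists was not tested.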

How the data were processed

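RNA was measured in 12 libraries in 4 groups of 3. The deposited table gave whole-number read counts per gene and library, not normalised by the authors, beside the authors' own comparison of IL-13 with untreated as a p-value, an FDR and a log2 fold change per gene, per the file headers. Coordinates are of mm10, the build that the submitters' processing notes name. The sources used here give neither aligner nor counter, and no strand setting. Of the members, 20 share exon bases with a protein-coding gene on the other strand (among them Mrpl14, Mrpl24, Mrpl27, Mrpl43, Mrpl48, Mrpl49, Mrps30 and Mrps34) and 4 on the same strand (Mrpl53, Mrps24, Mrps34 and Mrps6), so their values carry that uncertainty. The chi-square of counts was 3.90 or more per degree of freedom in each pair of replicates, more spread than read sampling alone gives. No replicate was thus a plain copy of another. Separate cultures and repeated handling of the same RNA cannot be told apart by this value.

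Rows of the same gene were summed to 18068 genes. All were fitted with edgeR 4.0.16 in R 4.3.3 (glmQLFit robust, glmQLFTest, TMM, filterByExpr), which kept 13750 genes and removed 4318, in a single fit over 12 libraries with 8 residual degrees of freedom, a biological coefficient of variation of 10.2% and no replicate block. P-values were adjusted by Benjamini-Hochberg over all genes tested, and called means under 0.05. Levels are CPM of the TMM-corrected library size; lengths come from GENCODE M21, using for each gene the transcript with the longest coding sequence. Alternatives were RLE factors, library totals, DESeq2 1.42.0, no filter, a mean of at least 50 counts, only the groups compared, a replicate block and each library left out; leaving out both libraries highest in Lars2 was added after the data were seen.

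Members and lists were chosen with earlier results of these data known. Named genes were, per comparison, subunit and direction, up to 5 called members with the smallest adjusted p, every called member against the direction of its subunit, the 3 smallest interaction p, fixed members, and up to 4 called genes per list (1 listed gene that the rule names is not reported here); Mrpl20, Mrpl48, Mrpl54, Mrpl46, Mrps11, Mrps15, Mrpl28, Myc, Tfam, Lars2 and the factors of the searched motifs were named after their values were seen. On simulated counts for IL-13 over untreated (13525 genes) the test found 65.2% of simulated 1.5-fold changes, 92.3% of 2-fold and 100% of 4-fold ones, with 11 false calls. The simulation gave every gene the same dispersion, changed few genes and held no other difference between groups. The real libraries differ in these respects, so the figures are not rates for them. Tables and plots used Python 3.11.15, pandas 2.3.3, scipy 1.17.1 and matplotlib 3.10.9.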

Additional observations from a re-analysis of the deposited data

How the results depend on the processing

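The scale mattered most. On library totals alone the log2 ratios of the subunit sums became -0.013 (large) and -0.053 (small) for IL-13 over untreated, -0.091 (large) for butyrate over untreated, -0.14 and -0.20 for both agents over IL-13, and -0.066 and -0.12 for both agents over butyrate. The small subunit ratio for butyrate over untreated also fell, by less than the spread between libraries (sums of 1318 CPM with butyrate and 1438 CPM untreated). Taco1, a listed translation factor, measured 54.1, 54.7 and 52.9 CPM with butyrate and 63.2, 59.8 and 63.1 CPM with both agents under TMM. Its log2 fold change for both agents over butyrate turned to -0.028 on library totals. Calls on that scale numbered 0 large subunit rows for butyrate over untreated, and 5 large and 3 small for both agents over IL-13. With only the groups compared in a fit, calls were 11 small subunit rows for IL-13, 0 large for butyrate, 1 large for both agents over IL-13 and 6 small for both agents over butyrate. Without a filter they were 0 large for butyrate and 0 small for both agents over IL-13. The cause of these shifts beyond the scale itself was not tested.

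With each library left out in turn, calls in the large and small subunit ranged over 10 to 13 and 2 to 10 for IL-13, 0 to 1 and 0 to 1 for butyrate, 0 to 3 and 0 to 3 for both agents over IL-13, 12 to 19 and 7 to 10 for both agents over butyrate, and 0 to 0 in both for the interaction. The log2 ratios of the sums ranged over 0.13 to 0.19 and 0.09 to 0.15, -0.06 to 0.02 and -0.12 to -0.01, -0.05 to 0.00 and -0.11 to -0.04, and 0.12 to 0.20 and 0.06 to 0.17 in the same order of comparisons.

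With a replicate block, butyrate over untreated had 0 large subunit calls, and the other member counts stayed within 1.5 times. Replicate numbers do not pair the libraries by any label, and the correlations of same-numbered libraries ran from -0.15 to 0.10.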
